A study of Mus musculus with 6 samples.

Results

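A total of 41 genes of synaptic vesicles, membrane fusion, the presynaptic active zone and secretory granules were followed in the soft palate of mouse embryos with and without the homeobox gene Dlx5. They were found by symbol among 49492 rows of the deposited table, and all 41 were present. The genes were chosen by their knockout against control values in these same libraries. The contrast of the members is therefore given as a description, without a p-value, and supports nothing by itself. By role there were 13 vesicle genes, 12 fusion genes, 10 active zone genes and 6 granule genes.

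The tissue was the posterior part of the palate, cut off at stage E14.5, and its RNA was sequenced in bulk with an mRNA library kit. The control group held 3 libraries labelled wild type. The other group held 3 libraries labelled Dlx5-/-, here called knockout 1 to 3. The sources used here give neither strain, sex nor the design of the Dlx5 allele. They also do not say whether each library is a different embryo or a pool, and the p-values therefore rest on a spread that may be technical in part. The series is about Dlx5 and the exchange between neural crest and myoblasts in the oropharynx.

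Libraries held 6891798 to 11922442 estimated counts. Dlx5 fell from 113 to 242 estimated counts in controls to 7 to 17 in knockouts, which matched every label, and it was the only gene of 16218 tested that passed at an adjusted p of 0.05 (0.0205, edgeR quasi-likelihood). Palate mesenchyme markers (8 genes) were present in every library, among them Prrx1 at 168 CPM or more (counts scaled to library size with TMM factors), while Tbx22 lay between 0.302 and 3.73 CPM. Knockout 3 stood apart: its mean correlation with the other libraries was 0.959, against 0.970 to 0.976 for the rest. It held 240.0 CPM over 12 brain markers, against 15.3 to 30.9 CPM in the other 5 libraries, so values for knockout 3 are given separately throughout.

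Neurons release transmitter by fusing small vesicles with the membrane at the active zone. Proteins of the vesicle (SV2, synaptophysin, synapsins, Rab3) load, tether and label it. SNARE proteins on vesicle and plasma membrane (synaptobrevins, SNAP25, syntaxin 1) zip together, with synaptotagmins as calcium sensors and complexins as clamps. Bassoon, Piccolo, RIM and Munc13 proteins arrange the release site and prime vesicles. Peptides and hormones travel instead in larger dense granules, whose cores hold granins, in neurons and in endocrine cells such as those of the pituitary. In the embryonic palate such transcripts can come from the nerve fibres and ganglion cells that lie in or near the dissected piece.

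Promoter sequences were examined for the members because most of them were lower together in knockouts 1 and 2 and because granule genes are a textbook example of a shared element. RefSeq windows of 250 bases before the annotated start (GRCm38.p6) were found for 33 of the 41 members. The letters TGACGTCA, the full cAMP response element, a palindrome that reads the same on both strands, were in 3 of these 33 genes (Chgb, Scg2 and Syn1) and in 1.77% of the 27025 genes with a window. The shorter TGACGT, searched on both strands and contained in the longer element, was in 6 of 33 (Chga, Chgb, Rab3a, Scg2, Scg5 and Syn1) and in 7.29% of all genes with a window. The stretches around it are shown with the matched letters in capitals, 5′ to 3′ on the gene's strand, to let the granins be compared.
Chga, chr12:102554886-102554915, plus strand: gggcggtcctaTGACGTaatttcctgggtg
Chgb, chr2:132781559-132781588, plus strand: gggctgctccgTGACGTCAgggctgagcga
Scg2, chr1:79440076-79440105, minus strand: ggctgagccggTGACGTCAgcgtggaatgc
Syn1, chrX:20921059-20921088, minus strand: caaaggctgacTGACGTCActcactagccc
The element began 44 bases before the RefSeq start in Chga, 72 in Chgb, 68 in Scg2 and 159 in Syn1. The match in Chga was to the shorter form. By GENCODE M21, the stretches of Chga and Syn1 lie before the outermost annotated start of the gene and those of Chgb and Scg2 within the longest annotated transcribed region. The motifs were chosen for display after their matches were seen.

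Syn1 also held TTCAGCACC, the left part of the RE1 element through which the repressor REST silences neuronal genes in other tissues. Searched on both strands, these letters were in 1 of the 33 members and in 0.348% of all genes with a window. The 2 promoters are printed from the far end of the RefSeq window, that of Syn1 up to the outermost start in GENCODE M21, to show the element positions in a granule and a vesicle gene.
Chga, chr12:102554691-102554940, plus strand: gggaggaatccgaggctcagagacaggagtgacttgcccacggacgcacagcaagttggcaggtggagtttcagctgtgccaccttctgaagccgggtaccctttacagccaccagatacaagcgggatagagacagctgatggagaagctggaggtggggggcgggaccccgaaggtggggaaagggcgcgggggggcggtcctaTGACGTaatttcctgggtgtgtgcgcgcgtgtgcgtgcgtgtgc
Syn1, chrX:20921005-20921168, minus strand: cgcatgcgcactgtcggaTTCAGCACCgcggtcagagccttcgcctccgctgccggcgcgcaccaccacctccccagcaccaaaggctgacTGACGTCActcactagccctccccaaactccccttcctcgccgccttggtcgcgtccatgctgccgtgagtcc
Capitals mark the matched letters only, which are a description of the sequence and not a measured binding site.

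In the controls all 41 genes were expressed above the filter used for testing (a mean of 1 CPM over the libraries), and each would have passed on its control level alone. Levels per kilobase of exon spanned from 41.7 for Rab3a, the vesicle GTPase, to 0.399 for Unc13c, a Munc13 priming factor. Of the 5 highest, 3 were granule genes: Chga (40.9), Pcsk1n (36.9) and Scg3 (31.6). Control ranges of Rab3a, Chga and Pcsk1n overlapped, so these 3 were not separated beyond their spread. Syt11, a synaptotagmin that is not a fast calcium sensor, followed at 29.7, and the SNARE genes Vamp2 and Snap25 at 26.6 and 25.6, with overlapping ranges. Syt1, the main fast calcium sensor, stood at 14.98 and its relative Syt2 at 3.52 CPM per kilobase. The lowest levels were those of Vamp1 (1.52), Nrxn3 (0.790) and Unc13c (0.399), whose control ranges did not overlap.

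**Figure D1:**
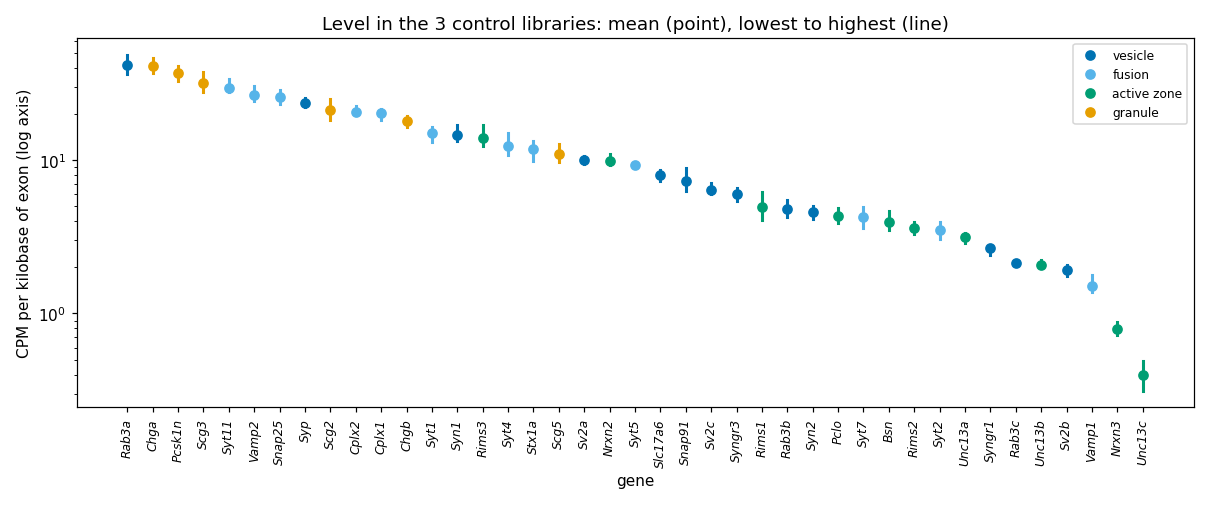
Level of each of the 41 genes in the 3 control libraries, in CPM per kilobase of annotated exon on a log axis, ordered by mean and coloured by role; points are means and lines run from the lowest to the highest control. Granule genes take 3 of the 5 highest places, and active zone genes take the 2 lowest.

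Knockouts 1 and 2 were lower than every control for 38 of the 41 genes, and above every control for 0. Over all 16218 genes tested the corresponding shares were 15.7% lower and 15.6% higher. Knockout 1 by itself was below every control for 38 genes and above for 0, against 29.2% and 30.2% of all genes. Knockout 2 was below for 41 and above for 0, against 28.5% and 29.8%. The 3 genes that knockout 1 left out were Sv2b, Syn2 and Unc13c. Relative to the control mean, the median log2 ratio over the 41 genes was -0.62 in knockout 1 and -0.80 in knockout 2, and 0.00 in both over all genes. Knockout 3 differed. There 20 genes lay below every control, 15 above every control and 6 within the control range, against 31% of all genes below and 32.3% above, and the median log2 ratio was -0.17. In 12 genes knockouts 1 and 2 lay below and knockout 3 above all controls, against 2.81% of all genes. Counting all 3 knockouts, 20 of 41 genes were below all controls, against 9.71% of all genes, and 0 were above, against 9.48%.

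**Figure D2:**
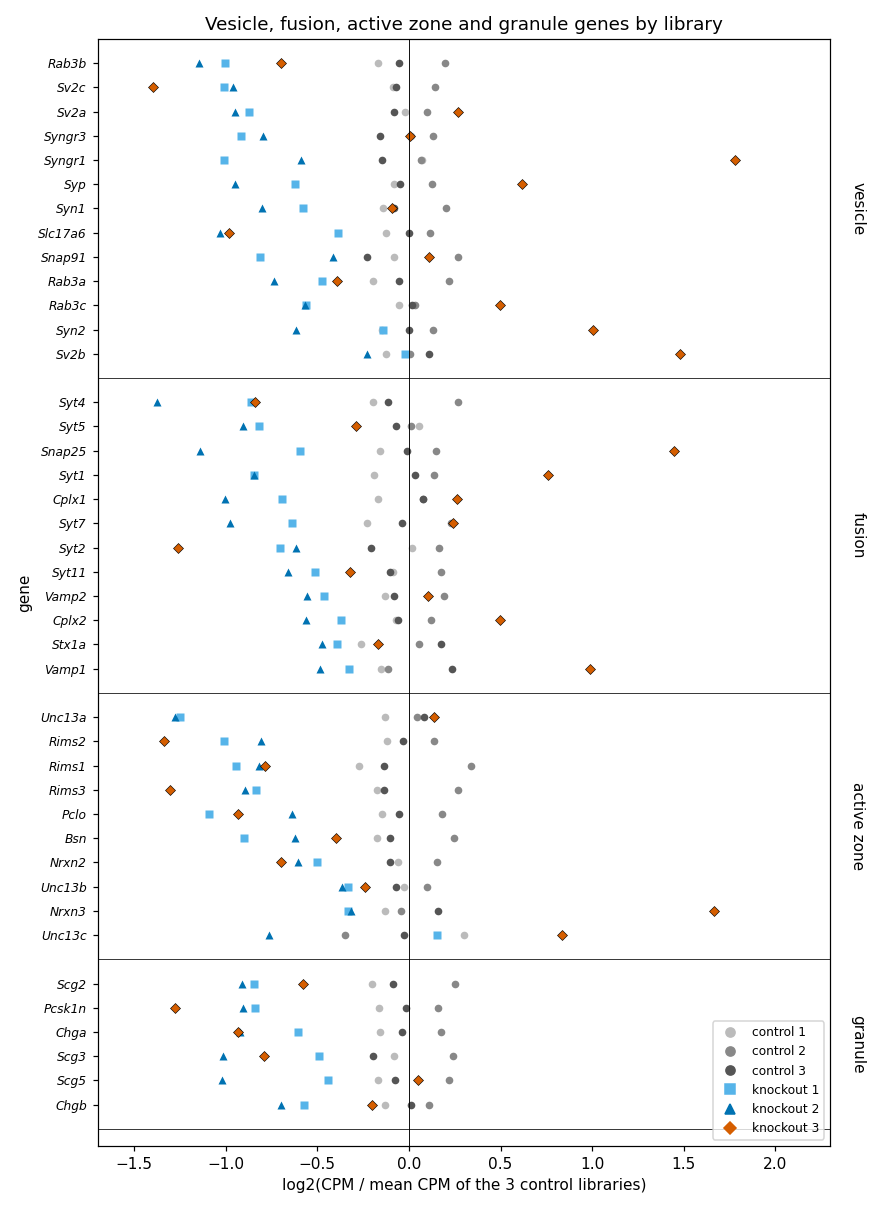
Each of the 41 genes in each library, as log2 of its CPM over the control mean, by role. Knockouts 1 and 2 lie left of the controls for 38 genes, while knockout 3 lies left of them for 20 and right of them for 15.

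The edgeR test called 0 of the 41 genes at an adjusted p of 0.05, lower or higher, with 0.00617% of all genes called lower and 0% higher. At an unadjusted p under 0.05 it counted 22 lower and 0 higher, against 7.23% and 5.6% of all genes. DESeq2 counted 17 lower and 0 higher after adjustment (2.76% and 0.858% of the genes it tested), and limma-trend 7 lower and 0 higher (0.543% and 0.0555%). Without knockout 3, edgeR counted 18 lower and 0 higher (0.937% and 0.074%). Since the genes were chosen with this contrast known, nothing is read from these counts. In bulk RNA, fewer cells of a type and less RNA per cell cannot be told apart.

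The median log2 fold change of vesicle genes was -0.39 over 13 genes, and -0.69 without knockout 3, beside 0.01 and 0.00 over all genes. In 4 of the 13 every knockout was below every control (Sv2c, Rab3a, Rab3b and Slc17a6), in 0 above. Over all genes these shares were 9.71% and 9.48%. The SV2 glycoproteins, which span the vesicle membrane, differed among themselves. Sv2c (chr13:95954594-96132577, minus strand, GRCm38) measured 55.6, 65.02 and 56.2 CPM in the controls and 29.3, 30.3 and 22.4 CPM in knockouts 1, 2 and 3. All 3 knockouts were low and knockout 3 was the lowest, with a log2 fold change of -1.12 (SE 0.13) over 6 libraries. Sv2a measured 42.5, 46.4 and 40.8 CPM in the controls and 23.6, 22.4 and 52.1 CPM in knockouts 1, 2 and 3. Its knockouts 1 and 2 lay well under the controls, while knockout 3 was above all of them. Sv2b measured 10.4, 11.4 and 12.2 CPM in the controls and 11.1, 9.67 and 31.6 CPM in knockouts 1, 2 and 3. Knockout 1 lay within the controls, knockout 2 just below them and knockout 3 far above, at 2.79 times the control mean. The ratio of Sv2a to Sv2c was 0.713 to 0.806 in the 5 other libraries and 2.32 in knockout 3.

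Among the synaptophysin, synapsin and synaptogyrin members, knockout 3 was above all controls for Syp, Syn2 and Syngr1 and within their range for Syn1 and Syngr3. Syp, which encodes an abundant protein of the vesicle membrane, measured 57.2, 65.998 and 58.5 CPM in the controls and 39.3, 31.4 and 92.9 CPM in knockouts 1, 2 and 3. It was lower in knockouts 1 and 2 and 1.53 times the control mean in knockout 3. Syn1, which tethers vesicles to one another, measured 43.7, 55.4 and 45.6 CPM in the controls and 32.3, 27.7 and 45.3 CPM in knockouts 1, 2 and 3. Here knockout 3 fell inside the control range. Syn2 measured 20.8, 25.2 and 23.000 CPM in the controls and 20.8, 14.997 and 46.2 CPM in knockouts 1, 2 and 3, so that knockout 3 was 2.01 times the control mean and knockout 1 lay just within the control range. Syngr1, a synaptogyrin, measured 12.5, 12.5 and 10.8 CPM in the controls and 5.92, 7.93 and 41.04 CPM in knockouts 1, 2 and 3. Its value in knockout 3, 3.44 times the control mean, was the highest such ratio among the 41 genes, and without that library its log2 fold change was -0.79 (SE 0.21). The related Syngr3 measured 11.98, 12.99 and 10.6 CPM in the controls and 6.28, 6.85 and 11.9 CPM in knockouts 1, 2 and 3. Knockout 3 stood at 1.00 times the control mean, inside the control range, with knockouts 1 and 2 below it.

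Rab3 GTPases mark vesicles that are ready to dock. Rab3a (chr8:70754679-70758677, plus strand) measured 64.995, 86.9 and 71.7 CPM in the controls and 53.7, 44.8 and 56.8 CPM in knockouts 1, 2 and 3. Rab3b (chr4:108879063-108943324, plus strand) measured 14.4, 18.5 and 15.5 CPM in the controls and 8.05, 7.28 and 9.96 CPM in knockouts 1, 2 and 3. Both were below the controls in all knockouts, with log2 fold changes of -0.53 (SE 0.13) and -0.93 (SE 0.18). Rab3c measured 18.4, 19.5 and 19.3 CPM in the controls and 12.9, 12.8 and 26.9 CPM in knockouts 1, 2 and 3, and thus was lower in knockouts 1 and 2 and 1.41 times the control mean in knockout 3. Slc17a6 encodes VGLUT2, the transporter that fills vesicles with glutamate in sensory neurons and much of the brainstem. It measured 30.1, 35.6 and 32.8 CPM in the controls and 25.1, 16.1 and 16.6 CPM in knockouts 1, 2 and 3, and all 3 knockouts were below the controls. Its relative Slc17a7, the transporter of cortical neurons, is not among the 41 genes and was counted here as a brain marker. It measured 4.97, 2.11 and 5.75 CPM in the controls and 3.32, 2.72 and 64.1 CPM in knockouts 1, 2 and 3. Snap91, a clathrin assembly protein that retrieves vesicle membrane, measured 30.1, 38.3 and 27.2 CPM in the controls and 18.1, 23.9 and 34.3 CPM in knockouts 1, 2 and 3. It was below the controls in knockouts 1 and 2 and at 1.08 times their mean in knockout 3.

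The median log2 fold change of fusion genes was -0.34 over 12 genes, and -0.74 without knockout 3. All 12 were below every control in knockouts 1 and 2, against 15.7% of all genes. In knockout 3, 4 were below, 6 above and 2 within the control range, against 31% of all genes below and 32.3% above. The calcium sensors split. Syt1 (chr10:108497650-109010982, minus strand) measured 63.4, 79.5 and 74.03 CPM in the controls and 40.3, 40.2 and 122 CPM in knockouts 1, 2 and 3. Its log2 fold change was -0.08 (SE 0.40) with all libraries and -0.85 (SE 0.11) without knockout 3. Syt2, a fast sensor of hindbrain and peripheral synapses, measured 25.8, 28.6 and 22.1 CPM in the controls and 15.6, 16.6 and 10.6 CPM in knockouts 1, 2 and 3. All 3 knockouts were low, knockout 3 the lowest. The ratio of Syt1 to Syt2 was 2.42 to 3.34 in the 5 other libraries and 11.5 in knockout 3.

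Among the other synaptotagmins, Syt4, which resides on dense granules and maturing vesicles, measured 41.998, 57.96 and 44.6 CPM in the controls and 26.5, 18.6 and 26.9 CPM in knockouts 1, 2 and 3. It had the lowest fusion gene estimate, -1.005 (SE 0.17), and no overlap between groups. Syt11 measured 144, 173 and 142 CPM in the controls and 107, 96.8 and 123 CPM in knockouts 1, 2 and 3. Every knockout was again under every control, by a smaller margin. Syt5 measured 16.9, 16.4 and 15.5 CPM in the controls and 9.24, 8.69 and 13.4 CPM in knockouts 1, 2 and 3, and its groups did not overlap either, with a log2 fold change of -0.64 (SE 0.19). Syt7, a slow calcium sensor with high affinity, measured 25.9, 35.6 and 29.6 CPM in the controls and 19.5, 15.4 and 35.9 CPM in knockouts 1, 2 and 3. It was thus below the controls in knockouts 1 and 2 and above them in knockout 3.

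All 4 SNARE genes were low in knockouts 1 and 2. Snap25, the plasma membrane SNARE that supplies a pair of helices to the fusion bundle, measured 51.4, 63.5 and 56.9 CPM in the controls and 37.9, 25.97 and 156 CPM in knockouts 1, 2 and 3. The first 2 knockouts were 0.662 and 0.454 times the control mean and knockout 3 was 2.73 times it. Its log2 fold change thus went from 0.37 (SE 0.57) with all libraries to -0.85 (SE 0.16) without that one. Vamp1, a vesicle SNARE of motor and hindbrain neurons, measured 5.61, 5.76 and 7.33 CPM in the controls and 4.97, 4.46 and 12.4 CPM in knockouts 1, 2 and 3, and again only knockout 3 was high. Vamp2, the main vesicle SNARE of the forebrain, measured 68.7, 85.8 and 71.01 CPM in the controls and 54.5, 51.1 and 80.9 CPM in knockouts 1, 2 and 3. Stx1a, which encodes syntaxin 1A of the plasma membrane, measured 21.4, 26.6 and 28.9 CPM in the controls and 19.5, 18.5 and 22.8 CPM in knockouts 1, 2 and 3. Both were below the controls in knockouts 1 and 2 and within their range in knockout 3, at 1.08 and 0.889 times the control mean. Cplx2, a complexin, measured 97.1, 111 and 97.6 CPM in the controls and 78.6, 69.01 and 143 CPM in knockouts 1, 2 and 3. Its relative Cplx1 measured 39.7, 47.2 and 47.01 CPM in the controls and 27.6, 22.3 and 53.5 CPM in knockouts 1, 2 and 3. Knockout 3 exceeded the controls for both complexins, at 1.20 times their mean for Cplx1 and 1.41 times for Cplx2, and the ratio of Cplx1 to Cplx2 stayed between 0.323 and 0.482 over the 6 libraries.

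The median log2 fold change of active zone genes was -0.62 over 10 genes, and -0.81 without knockout 3. In 7 of the 10 all knockouts were below all controls, against 9.71% of all genes. RIM proteins recruit calcium channels to the release site, and the 3 of their genes among the members were low in every knockout. Rims3 (chr4:120854816-120896579, plus strand) measured 83.5, 113 and 85.5 CPM in the controls and 52.8, 50.6 and 38.2 CPM in knockouts 1, 2 and 3. Rims2 (chr15:39198261-39684372, plus strand) measured 25.9, 31.01 and 27.6 CPM in the controls and 13.97, 16.1 and 11.2 CPM in knockouts 1, 2 and 3. Their log2 fold changes were -1.003 (SE 0.16) and -1.04 (SE 0.15), and for both genes knockout 3 was the lowest library. Rims1 measured 27.9, 42.5 and 30.6 CPM in the controls and 17.5, 19.1 and 19.5 CPM in knockouts 1, 2 and 3, again without overlap, and its estimate was -0.85 (SE 0.17).

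The giant scaffold genes were low too. Pclo, which encodes Piccolo (chr5:14514918-14863459, plus strand), measured 85.3, 107 and 91.3 CPM in the controls and 44.4, 60.9 and 49.6 CPM in knockouts 1, 2 and 3, with no overlap and a log2 fold change of -0.88 (SE 0.14). Bsn, encoding Bassoon, measured 55.4, 74.03 and 58.1 CPM in the controls and 33.5, 40.5 and 47.5 CPM in knockouts 1, 2 and 3. It also lay below the controls in every knockout, at 0.759 times their mean in knockout 3. Among the Munc13 genes, Unc13b, the broadly expressed form, measured 35.7, 38.97 and 34.6 CPM in the controls and 28.9, 28.3 and 30.9 CPM in knockouts 1, 2 and 3. It was low in every knockout, with the estimate nearest 0 among the 20 genes without overlap, -0.31 (SE 0.09). Unc13a, the main neuronal form, measured 29.8, 33.6 and 34.5 CPM in the controls and 13.7, 13.5 and 35.8 CPM in knockouts 1, 2 and 3. Knockouts 1 and 2 were far below the controls and knockout 3 just above them, with a log2 fold change of -0.61 (SE 0.35) over all libraries and -1.26 (SE 0.13) without knockout 3. Unc13a shares 495 exonic bases with Colgalt1 on the other strand, which held 4883 counts over the 6 libraries against 1645 for Unc13a, and whether strand was used in counting is not given. Unc13c measured 4.32, 2.76 and 3.45 CPM in the controls and 3.91, 2.06 and 6.26 CPM in knockouts 1, 2 and 3, from only 19 to 83 estimated counts a library, and its groups overlapped.

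The neurexins, adhesion proteins of the presynaptic membrane, lay on opposite sides of the controls in knockout 3. Nrxn2 (chr19:6418731-6544169, plus strand) measured 87.7, 101 and 85.1 CPM in the controls and 64.7, 60.1 and 56.4 CPM in knockouts 1, 2 and 3. All 3 knockouts were below all controls, with a log2 fold change of -0.60 (SE 0.10). Nrxn3 measured 6.80, 7.22 and 8.34 CPM in the controls and 5.92, 5.98 and 23.7 CPM in knockouts 1, 2 and 3. It was lower in knockouts 1 and 2 and 3.18 times the control mean in knockout 3, and its log2 fold change went from 0.70 (SE 0.52) to -0.32 (SE 0.22) without that library.

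The median log2 fold change of granule genes was -0.76 over 6 genes, the lowest of the 4 roles, and -0.75 without knockout 3, where that of active zone genes was lower (-0.81). In 5 of the 6 every knockout was below every control, against 9.71% of all genes. In knockout 3 none of the 6 was above the controls, against 32.3% of all genes. That did not hold for the other granule genes, described below. Pcsk1n (chrX:7919822-7924410, plus strand), which encodes proSAAS, an inhibitor of a prohormone convertase, measured 72.2, 90.4 and 80.1 CPM in the controls and 45.2, 43.1 and 33.3 CPM in knockouts 1, 2 and 3. The knockouts were all low, with knockout 3 at 0.412 times the control mean, and the log2 fold change was -1.002 (SE 0.14). Chga (chr12:102554969-102565028, plus strand), the granin of the granule core, measured 69.1, 86.9 and 75.2 CPM in the controls and 50.7, 40.6 and 40.4 CPM in knockouts 1, 2 and 3. Knockouts 2 and 3 were nearly equal.

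Scg3, which anchors granins to the granule membrane, measured 71.1, 89.1 and 65.8 CPM in the controls and 53.7, 37.3 and 43.6 CPM in knockouts 1, 2 and 3, without overlap. Scg2 (chr1:79434669-79440120, minus strand), a granin that is cut into secretoneurin, measured 46.1, 63.2 and 49.9 CPM in the controls and 29.5, 28.3 and 35.5 CPM in knockouts 1, 2 and 3, also without overlap. Their log2 fold changes were -0.75 (SE 0.16) and -0.77 (SE 0.14). Chgb measured 45.2, 53.4 and 50.02 CPM in the controls and 33.3, 30.5 and 43.1 CPM in knockouts 1, 2 and 3, so knockout 3 lay only just below the lowest control. Scg5, whose product 7B2 is a chaperone of another prohormone convertase, measured 11.8, 15.3 and 12.5 CPM in the controls and 9.71, 6.52 and 13.7 CPM in knockouts 1, 2 and 3. It was the 1 granule gene with knockout 3 inside the control range. The 3 granins with a TGACGT match before their start had log2 fold changes of -0.82 (SE 0.12) for Chga, -0.47 (SE 0.14) for Chgb and -0.77 (SE 0.14) for Scg2. Scg5, with a match 175 bases before its start, had -0.40 (SE 0.27). The granule genes whose windows held no match, Scg3 and Pcsk1n, had -0.75 (SE 0.16) and -1.002 (SE 0.14).

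Ratios of CPM between relatives within a library, which do not depend on how libraries are scaled, showed the same division. The ratio of Sv2b to Sv2c lay between 0.175 and 0.217 in controls, at 0.381 and 0.319 in knockouts 1 and 2 and at 1.41 in knockout 3. That of Nrxn3 to Nrxn2 lay between 0.071 and 0.099 in the 5 other libraries and at 0.420 in knockout 3. Both active zone and vesicle families thus held 1 relative that was high and 1 that was low in that library. The ratio of Syn2 to Syn1 was 0.455 to 0.645 in the others and 1.02 in knockout 3, and that of Rab3c to Rab3b was 1.05 to 1.76 and 2.70. For a pair that are not relatives, Snap25 stood at 0.268 to 0.400 times Syt11 in the 5 other libraries and 1.28 times in knockout 3. Unc13a took another course, and its ratio to Unc13b was 0.834 to 0.996 in controls, 0.475 and 0.477 in knockouts 1 and 2 and 1.16 in knockout 3. The ratio of Rims1 to Rims3 lay between 0.332 and 0.378 in the 5 other libraries and was 0.512 in knockout 3. That of Slc17a7 to Slc17a6 was 0.059 to 0.175 in the 5 others and 3.86 in knockout 3. The ratio of Cplx1 to Cplx2, by contrast, was 0.373 in knockout 3, inside the range of 0.323 to 0.482 in the 5 others. These ratios have no test.

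For comparison, 14 neuronal cytoskeleton and cell body genes (Tubb3, neurofilaments, Stmn2, Elavl3 and the like) were below all controls in 14 of 14 cases in each knockout. Over all genes the shares were 29.2%, 28.5% and 31% in knockouts 1, 2 and 3. This list too was made with earlier results of these data known, so its count is a description. The median log2 ratio of the 14 genes to the control mean was -0.60, -0.80 and -1.03 in knockouts 1, 2 and 3. The median of the 41 genes lay -0.02 and 0.00 log2 units from that list in knockouts 1 and 2, and 0.86 above it in knockout 3. In knockout 1 active zone genes lay -0.26 from it. By role the distance in knockout 3 was 1.14 for vesicle, 1.21 for fusion, 0.49 for active zone and 0.35 for granule genes, whereas in the controls it stayed between -0.10 and 0.05 for all roles. These distances are descriptions, with no test.

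**Figure D3:**
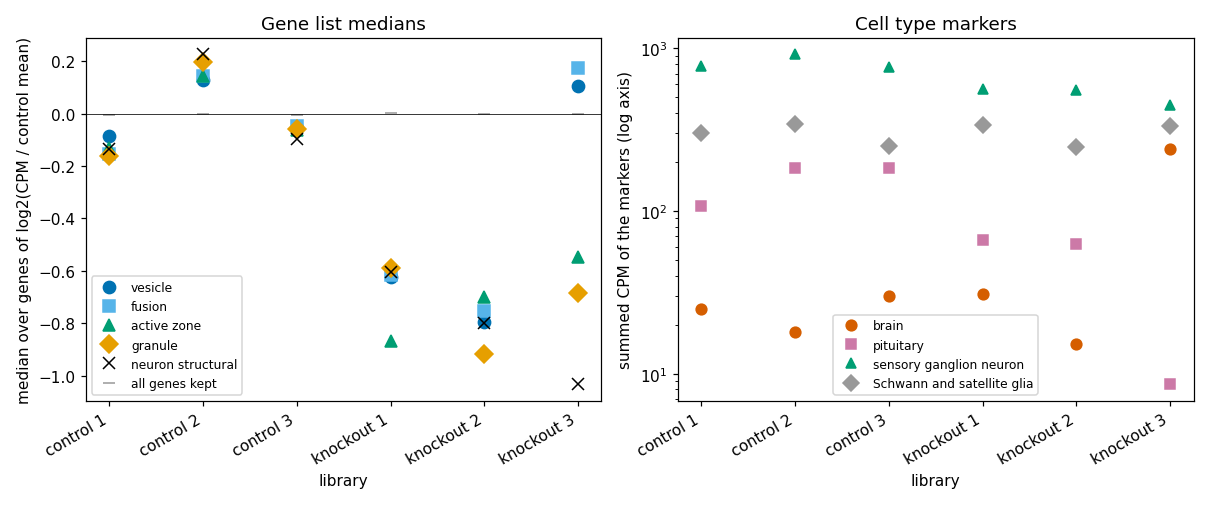
Left, the median over each gene list of log2(CPM / control mean) in each library, for the 4 roles, neuronal structural genes and all genes tested; right, the summed CPM of markers of 4 cell types on a log axis. In knockout 3 the vesicle and fusion medians lie above 0 while neuronal structural genes lie at -1.03, and the brain markers sum to 240.0 CPM.

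Markers of other cell types differed between the same libraries. Sensory ganglion markers summed to 763 to 918 CPM over 13 genes in controls and 448 to 559 CPM in knockouts, with 11 of 13 below all controls in every knockout. Pituitary markers, from cells rich in secretory granules, summed to 107 to 185 CPM over 11 genes in controls and 66.4, 62.8 and 8.60 CPM in knockouts 1, 2 and 3. All 8 of the pituitary markers that passed the filter were below the controls in every knockout, and Gh was at 0 in all libraries. Over all genes the share below all controls in every knockout was 9.71%. Lhx4 and Tshb had knockout means under 1 CPM (0.237 and 0.947) and passed the filter only through the controls, so their place in that count was set in part by the filter. Of 9 brain markers that passed the filter, 9 were above all controls in knockout 3, 4 in knockout 1 and 0 in knockout 2. The shares over all genes were 32.3%, 30.2% and 29.8%. Gad2 and Tbr1 passed the filter only through knockout 3, so their place in its count was set by the filter. Of the brain markers removed, Eomes was above all controls in knockout 3 (1.21 CPM), while Emx1 (0.151) and Olig2 (1.36) were not. Gfap, of astrocytes, stood at 40.4 CPM and Gad1, of inhibitory neurons, at 52.7 CPM in knockout 3. Autonomic and motor markers summed to 35.8 to 52.5 CPM in controls and 23.6 to 34.7 CPM in knockouts, over 9 genes. Schwann and satellite glia markers summed to 250 to 342 CPM in controls and 247 to 336 CPM in knockouts, over 9 genes. Oral epithelium markers (7 genes) summed to 200 to 297 CPM in controls and 181 to 198 CPM in knockouts. Of the 7, 2 were below all controls in every knockout and 0 above, with a median log2 fold change of -0.085. Skeletal muscle markers (8 genes) summed to 916 to 1632 CPM in controls and 1026 to 2881 CPM in knockouts, with a median log2 fold change of 0.99. Of the 8, 3 were above all controls in every knockout and 0 below, against 9.48% and 9.71% of all genes. Taken singly, knockouts 1, 2 and 3 were above all controls for 3, 8 and 7 of them. Palate mesenchyme markers (8 genes) summed to 3216 to 3751 CPM in controls and 2555, 3963 and 1892 CPM in knockouts 1, 2 and 3. Of this sum Col1a1, a collagen gene also of other connective tissue, made 2635 to 3064 CPM in controls and 1778, 3222 and 1072 CPM in the knockouts, while Prrx1 was above all controls in every knockout. The part of these cell types in the values of the 41 genes was not tested.

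The rest of the same machinery was examined in 103 further genes, listed by family and not by how they moved. Of these 102 were in the table and 93 passed the filter. The 41 genes of the same machinery had been chosen by their values, and the lists were made with earlier results known. The 103 are thus what that choice left, and they are no independent check. The median log2 fold change of the 93 was -0.16, and -0.33 without knockout 3, with 62 estimates below 0 and 31 above. Knockouts 1 and 2 were below every control for 48 of the 93 and above for 4, and all 3 knockouts were below for 22 and above for 3, beside the shares over all genes given for the 41. The edgeR test called 0 lower and 0 higher at an adjusted p of 0.05, and 21 lower and 3 higher at an unadjusted p under 0.05, against 7.23% and 5.6% of all genes. After adjustment DESeq2 called 8 lower and 0 higher of the 83 it tested, limma-trend 3 lower and 0 higher, and edgeR without knockout 3 called 6 lower and 0 higher.

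Cadps, which primes dense granules for release, measured 42.6, 49.6 and 43.4 CPM in the controls and 25.6, 26.8 and 29.3 CPM in knockouts 1, 2 and 3. It had a log2 fold change of -0.73 (SE 0.10) and an edgeR adjusted p of 0.0527, in a range of 0.000137 to 0.231 with 5 of 14 alternatives under the threshold. Every knockout was below every control. Erc2, an active zone scaffold, and Apba1, an adaptor of the exocytic machinery, had estimates of -0.79 (SE 0.13) and -0.87 (SE 0.17), and edgeR adjusted p of 0.0591 and 0.0804. Over the 14 alternatives these ran from 0.000162 to 0.231 and from 0.000187 to 0.324, with 3 under the threshold for each gene. For Ppfia2, a liprin of the active zone, the estimate was -0.74 (SE 0.15) with an edgeR adjusted p of 0.0799 (0.00421 to 0.324 over the alternatives, 2 under the threshold). In all 4 of these genes the groups did not overlap.

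Of the 11 other granule genes that passed the filter, 10 had an estimate below 0, with a median of -0.29 and, without knockout 3, of -0.96. In knockout 3, 4 of the 11 lay above every control (Cpe, Pcsk2, Ptprn and Ptprn2), 4 below and 3 within the range. Over all genes 32.3% lay above and 31% below. The 4 with the smallest p were Resp18 -1.11 (SE 0.28), the prohormone convertase gene Pcsk1 -1.08 (SE 0.28), Sytl4 -1.05 (SE 0.26) and the neuropeptide precursor gene Vgf -0.69 (SE 0.33). The others lay nearer 0, from -0.43 for Ptprn2 to 0.06 for Cpe, which encodes the carboxypeptidase that trims peptide precursors. None of the 4 passed with all libraries in edgeR (adjusted p from 0.133 to 0.441), while Resp18 and Sytl4 passed in DESeq2 (adjusted p of 0.0453 and 0.0236). Over their alternatives the adjusted p of Resp18 ran from 0.0395 to 0.458 and that of Sytl4 from 0.0225 to 0.389. Vgf measured 14.1, 16.7 and 16.5 CPM in the controls and 5.92, 7.39 and 15.7 CPM in knockouts 1, 2 and 3, and without knockout 3 it passed (-1.25, SE 0.19, adjusted p = 0.0333, edgeR), the lowest of a range that reached 0.779. Cadps, Apba1, Vgf and Ptprn were among the 6 genes that passed without knockout 3. Ptprn, a granule membrane protein, was named after its values were seen: its edgeR adjusted p was 0.0290 without knockout 3, against 0.881 with it, and with all libraries it was 0.977 in DESeq2 and 0.677 in limma-trend. Among vesicle and fusion genes, the smallest p after that of Cadps were those of Sncg, a synuclein of sensory neurons (-0.94, SE 0.24), Rab27b (-0.89, SE 0.25), Rab3d (-0.53, SE 0.15), Dnm3 (-0.36, SE 0.14), Syt9 (-0.81, SE 0.16), Snap47 (-0.33, SE 0.09) and Snap29 (-0.26, SE 0.08), none of which passed in edgeR (adjusted p from 0.0782 to 0.339). Syt9 passed in DESeq2 (adjusted p of 0.00683), and its range reached 0.325. Sncg passed under 1 of 14 alternatives, with a range of 0.000534 to 0.453.

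**Figure D4:**
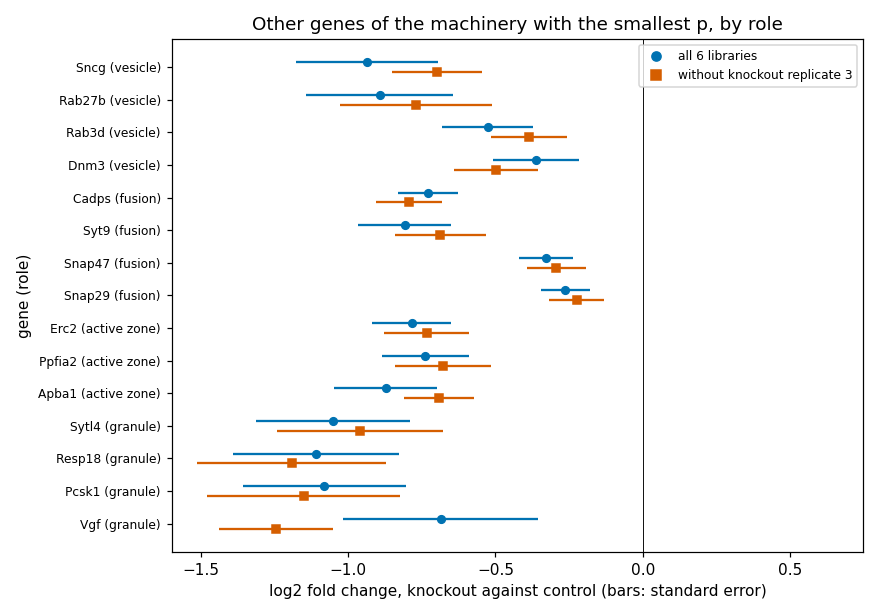
Log2 fold change with standard error for 15 further genes of the machinery with the smallest p in each role, with all 6 libraries (circles) and without knockout 3 (squares). All 15 estimates are below 0 both ways, and Vgf shifts most, from -0.69 to -1.25.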

How the data were processed

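RNA from the soft palate of 3 control and 3 Dlx5-/- embryo samples was sequenced. Reads were aligned to mm10 with STAR 2.4.1d and handled in Partek, per the submitters' processing notes. The sources used here name no annotation, no counting rule and no strand setting. The deposited values are estimated counts per gene, not whole in part, with totals of 6891798 to 11922442 per library, although the table is described as normalized; they were not rescaled. Columns were matched to samples by the labels, and 1 further column, whose name marks it as wild type but which matched no labelled sample, was not used in the control group or elsewhere.

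Estimated counts were rounded to whole numbers and tested with edgeR 4.0.16 in R 4.3.3 (quasi-likelihood, TMM factors, no covariate), over 16218 of 49492 genes with a mean of at least 1 CPM in the 6 libraries, with Benjamini-Hochberg adjustment and a threshold of 0.05. A standard error is the log2 fold change divided by the square root of its F statistic. CPM values are estimated counts scaled to library size with TMM factors. Levels between genes are per kilobase of GENCODE M21 exons. The fit was tested on simulated data. Alternatives were DESeq2 1.42.0, limma-trend 3.58.1 on log2(CPM + 1), other scalings and filters, a replicate block and leaving out each library.

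The members and gene lists were chosen with earlier results of these data known. In each role, values per library are given for the 3 members with the highest mean CPM, the 2 with the lowest and the 1 with the highest log2 fold change and every member with an estimate above 0, with relatives of the same family beside them, and the 4 other genes with the smallest p are named, except that some results are not reported here. Other members were added where a comparison needed them. Promoters are RefSeq windows on GRCm38.p6.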

Additional observations from a re-analysis of the deposited data

How the results depend on the processing

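The number of genes that passed depended on the method. Over all genes, 1 lower and 0 higher passed in edgeR. This became 386 and 120 with DESeq2, 88 and 9 with limma-trend, 68 and 6 with a filter of 5 CPM, 435 and 244 with no filter, and 41 and 0 when TMM was left out. Of the 41 genes, 0 passed in edgeR, 17 with DESeq2, 7 with limma-trend, 7 with a filter of 5 CPM, 18 with no filter and 4 without TMM, all lower. Of the other genes of the machinery, 0 lower passed in edgeR, 8 with DESeq2, 3 with limma-trend, 2 with a filter of 5 CPM, 10 with no filter and 1 without TMM; 1 higher (Slc17a7) passed with no filter. Leaving out 1 library at a time gave 0 to 152 lower and 0 to 12 higher over all genes, 0 to 18 of the 41 genes and 0 to 6 of the others, with the highest values without knockout 3 (18 and 6). The median log2 fold change of the 41 genes ran from -0.76 to -0.38 over these omissions, that of active zone genes from -0.81 to -0.55 and that of fusion genes from -0.74 to -0.15, the lowest in each case without knockout 3. Vesicle genes ran from -0.69 to -0.20 and granule genes from -0.83 to -0.62. Of the 24 members named by the rule, 9 moved by more than the spread between replicates without knockout 3 (Cplx2, Nrxn3, Snap25, Sv2b, Syn2, Syngr1, Syp, Syt1 and Vamp1) and 0 under each of the other settings; the filter of 5 CPM removed Unc13c. The cause was not tested. With the replicate number as a block, 0 genes passed over all genes and the median of the 41 genes was -0.49. Deviations of libraries with the same number correlated at -0.01, -0.01 and 0.02, so the numbers were not read as pairs. With 3 libraries a group, 1 of which stands apart, differences near the size of the standard errors given cannot be told from 0 here.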
